A study of Mus musculus with 6 samples.

Results

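The genes described here are Il2, which encodes the cytokine interleukin-2 (IL-2), and 6 receptor genes of the cytokine family that signals through the common gamma chain. They were chosen by symbol from the deposited table of 54532 genes, where each of the 7 symbols occurred once, and all 7 passed the filter on low counts that left 14530 genes for testing. The 2 groups were 3 idelalisib cultures and 3 control cultures, all of CD4+ T cells from spleens of C57BL/6 mice, kept for 72 h under T helper 1 (Th1) conditions. Idelalisib inhibits the delta isoform of phosphoinositide 3-kinase (PI3K). The series asks how the drug acts on CD4+ T cell activation, division, differentiation and survival. The sources used here give neither its dose, nor any solvent in the control cultures, nor the ages and number of mice. The replicates are labelled as biological, but not as cultures of separate mice, and the p-values cover the spread between cultures only, and that spread may be technical.

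IL-2 is the growth factor that activated T cells make for themselves and for regulatory T cells. Its high-affinity receptor is a trimer of an alpha chain (Il2ra, CD25), a beta chain (Il2rb, CD122) and the common gamma chain (Il2rg, CD132). The alpha chain captures the cytokine, and the beta and gamma chains carry the signal through the kinases JAK1 and JAK3 to STAT5. The beta chain also serves interleukin-15, which is presented by its own alpha chain (Il15ra), and the gamma chain pairs with the specific chains for interleukin-4 (Il4ra) and interleukin-21 (Il21r). Il2 is transcribed after T cell receptor and CD28 signals, through NFAT, AP-1 and NF-kappaB factors. IL-2 signalling in turn raises Il2ra.

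Total counts were 13372318 to 16035945 in the idelalisib libraries and 14879325 to 16770452 in the control libraries. Levels are given as CPM, the reads of a gene scaled to the same total in every library with TMM factors (trimmed mean of M-values). Genes with an adjusted p under 0.05 in the edgeR quasi-likelihood test were called. Across all tested genes, 3223 were higher and 3256 lower with idelalisib, while scaling by library size alone gave 4832 and 2219, and a median log2 fold change of 0.16 in place of 0.01. The chi-square statistic of counts per degree of freedom between libraries of a group, a measure of distance, was 11.3 and 18.2 for the pairs with idelalisib replicate 2, 8.97 for the other idelalisib pair and 4.63 to 5.55 for the control pairs. For several genes in which idelalisib replicate 2 stood apart, though not for all, the fold change is therefore also given without it.

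The sequences just upstream of 3 of the genes are shown because these genes carry the clearest changes below: Il2 and Il2ra rose, and Il15ra, which lies 12.1 kb from Il2ra on the same strand, fell. They come from RefSeq (build GRCm38.p6), run 5′ to 3′ on the gene's own strand and hold 250 bases before and 50 bases after the annotated start. Capitals mark GGAAA or its complement TTTCC, the core that NFAT factors bind and that many ETS factors can also use. The windows are chr3:37125905-37126204 on the minus strand for Il2, chr2:11642542-11642841 on the plus strand for Il2ra and chr2:11705043-11705342 on the plus strand for Il15ra. The table holds a second Il15ra window, chr2:11705462-11705761 on the plus strand. The window shown is the one that spans the start of the gene as the deposited table gives it.
Il2: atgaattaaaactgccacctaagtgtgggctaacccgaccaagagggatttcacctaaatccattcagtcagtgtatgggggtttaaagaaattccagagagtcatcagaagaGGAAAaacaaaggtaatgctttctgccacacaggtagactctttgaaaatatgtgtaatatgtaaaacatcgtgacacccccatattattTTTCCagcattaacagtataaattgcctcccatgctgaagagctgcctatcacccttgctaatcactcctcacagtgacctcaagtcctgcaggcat
Il2ra: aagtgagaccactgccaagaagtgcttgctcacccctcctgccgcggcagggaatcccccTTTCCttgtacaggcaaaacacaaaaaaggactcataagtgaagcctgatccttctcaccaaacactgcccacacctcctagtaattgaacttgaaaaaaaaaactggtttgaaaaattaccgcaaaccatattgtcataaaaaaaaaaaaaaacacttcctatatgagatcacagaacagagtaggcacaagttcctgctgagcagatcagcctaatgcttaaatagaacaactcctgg
Il15ra: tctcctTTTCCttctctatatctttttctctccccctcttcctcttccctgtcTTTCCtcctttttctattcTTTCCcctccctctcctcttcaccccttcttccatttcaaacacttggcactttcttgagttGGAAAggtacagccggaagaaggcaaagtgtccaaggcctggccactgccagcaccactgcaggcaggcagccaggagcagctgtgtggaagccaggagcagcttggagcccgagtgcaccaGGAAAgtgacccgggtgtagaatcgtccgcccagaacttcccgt
The Il2 window held 2 such matches, whose first bases lie at -137 and -47 from the start, and a TATAAA at -31. The Il2ra window held 1 match, at -190, and the Il15ra window shown held 5, while the second Il15ra window held 0. Of 32851 windows of this length in the RefSeq table, 61.3% held at least 1 match of GGAAA on either strand, 26.7% at least 2 and 0.728% at least 5. None of the 3 windows shown held TGANTCA (an AP-1 site) or TTCNNNGAA (a STAT site) on either strand, motifs found in 7.81% and 8.30% of all windows. The second Il15ra window held 1 match of TGANTCA, at -30 from its own start. A match is a run of letters and says nothing of binding in these cells. Of the 7 genes, 6 had a window in the table.

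Of the 7 genes, 4 were called higher and 1 lower with idelalisib, where 22.2% of all tested genes were called higher and 22.4% lower, 44.6% together. The ligand gene Il2 had the largest rise, Il2ra followed, and Il2rb and Il21r rose by small amounts. Il15ra fell. The common chain gene Il2rg and the interleukin-4 receptor gene Il4ra did not pass the test. Between libraries, the groups did not overlap for 3 genes that were higher with idelalisib (27.5% of all tested genes) and 2 that were lower (27.2%), 5 in all (54.6%). The median log2 fold change of the 7 genes was 0.20, against 0.01 for all tested genes. By absolute log2 fold change Il2 stood at the 99.3rd percentile of tested genes, Il2ra at the 71.0th and Il15ra at the 57.8th. By mean CPM the order was another: Il2ra was at the 99.8th percentile of tested genes, Il2rb at the 99.3rd, and Il2 at the 42.5th.

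**Figure D1:**
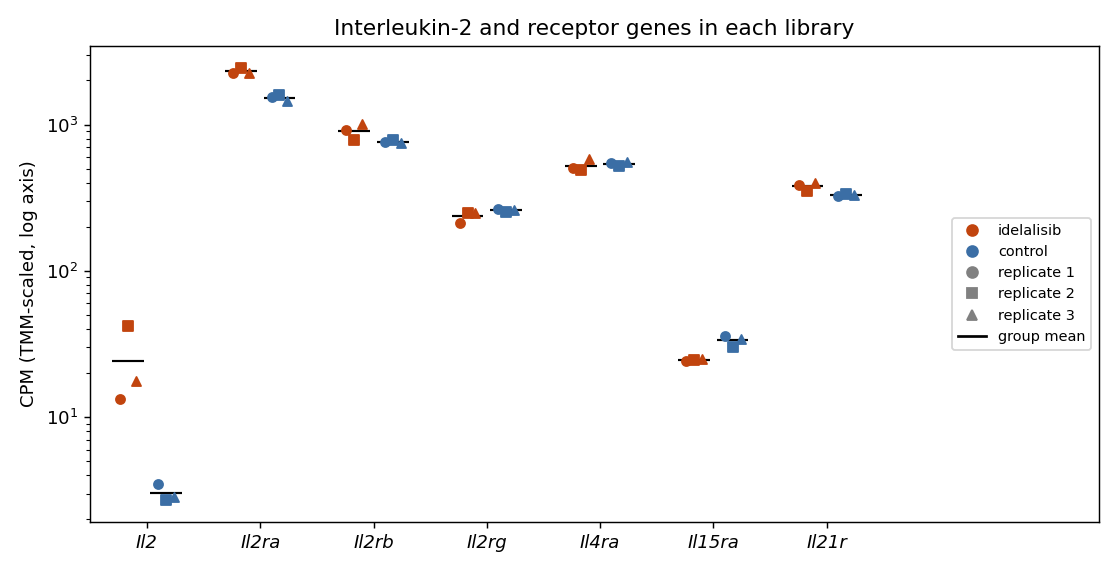
CPM of the 7 genes in each library on a log axis, idelalisib in orange left of control in blue, with a marker shape per replicate number and a bar at each group mean. The Il2 points of the idelalisib libraries lie at 13.4 to 41.8 CPM, all above the control points at 2.71 to 3.50 CPM, and Il2ra lies at 2263 to 2452 CPM with idelalisib against 1457 to 1591 CPM in control.

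Il2 (ENSMUSG00000027720, mm10 chromosome 3, 37120523 to 37125959, minus strand) had 203, 591 and 297 reads in the idelalisib libraries and 56, 41 and 40 reads in the control libraries. These are 13.4, 41.8 and 17.7 CPM with idelalisib and 3.50, 2.71 and 2.86 CPM in control. The groups did not overlap, and idelalisib replicate 2 was well above the other idelalisib cultures. Set against the control mean, the 3 idelalisib libraries were 4.42-fold, 13.8-fold and 5.87-fold higher. Il2 averaged 24.3 ± 15.3 CPM with idelalisib and 3.02 ± 0.423 CPM in control (SD, n = 3 each), a log2 fold change of 3.00 (SE 0.54, 95% interval 1.62 to 4.37, edgeR adjusted p = 0.00778). Without idelalisib replicate 2 the log2 fold change was 2.37 (edgeR adjusted p = 5.21e-10). The size of the rise thus depends on that culture, while the call did not change in any fit that left out 1 library.

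Il2 shares part of its locus with Adad1, a testis gene on the opposite strand, over 1408 bases. The exons of these genes do not overlap in GENCODE M21, where the last exon of Adad1 lies in an intron of Il2. Adad1 itself had 25, 67 and 29 reads with idelalisib and 6, 10 and 2 in control, and its log2 fold change was 2.73 with SE 0.55 (edgeR adjusted p = 0.00130). Without idelalisib replicate 2 the log2 fold change of Adad1 was 2.07 (edgeR adjusted p = 0.00203). For each 100 reads on Il2 there were 12.3, 11.3 and 9.76 on Adad1 in the idelalisib libraries and 5 to 24.4 in the control libraries, where the counts are small. No source used here gives the strand setting of the counting, so reads of unspliced Il2 RNA and of Adad1 cannot be told apart.

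Il2ra (ENSMUSG00000026770, mm10 chromosome 2, 11642807 to 11693193, plus strand) was the most abundant of the 7 genes. It was at 2263, 2452 and 2263 CPM in the idelalisib libraries, on 34383 to 37899 reads, and at 1542, 1591 and 1457 CPM in the control libraries. The groups did not overlap, and idelalisib replicate 2, the culture with the most Il2, was also highest for Il2ra. The rise was 1.52-fold, a log2 fold change of 0.60 (SE 0.08, 95% interval 0.44 to 0.77, edgeR adjusted p = 2.84e-05), and it was 0.57 without idelalisib replicate 2. CD25 is also carried by regulatory T cells, whose markers were split. Of 8 such markers 3 were higher and 4 lower (median log2 fold change -0.37), where 22.2% and 22.4% of all tested genes were. The 4 that were lower were Ctla4, Ikzf2, Nt5e and Capg. The 8 markers summed to 1064 to 1195 CPM with idelalisib and 1504 to 1608 CPM in control. Most of the difference lay in Ctla4, an inhibitory receptor that activated T cells carry too, at 579 ± 5.54 CPM with idelalisib and 941 ± 29.9 CPM in control (SD, n = 3 each). The other 7 markers summed to 479 to 621 CPM with idelalisib and 595 to 663 CPM in control, which overlap. The 3 that were higher were Lrrc32 and Gpr83, with log2 fold changes of 1.31 and 1.88, and Foxp3, the lineage factor, at 7.72 ± 1.28 CPM with idelalisib and 5.23 ± 0.382 CPM in control (SD, n = 3 each). The call of Foxp3 was lost without idelalisib replicate 2 (edgeR adjusted p = 0.0873) and without control replicate 1, 2 or 3 (0.0996, 0.0641 and 0.0506). In bulk RNA, more cells of a type and more RNA per cell cannot be told apart, and the part of regulatory T cells in the Il2ra result was not tested.

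Inside an intron of Il2ra the deposited table lists Gm37881 (chromosome 2, 11683126 to 11683546), an unspliced model of 421 bases on the same strand whose exon shares no base with an Il2ra exon. It was at 43.6, 53.3 and 39.0 CPM in the idelalisib libraries and 84.8, 77.3 and 86.3 CPM in the control libraries. It fell while Il2ra rose, with a log2 fold change of -0.87 with SE 0.11 (edgeR adjusted p = 2.75e-05). As both lie on the same strand, reads of unspliced Il2ra RNA and of Gm37881 cannot be told apart.

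Il2rb (ENSMUSG00000068227, mm10 chromosome 15, 78479256 to 78495271, minus strand) was at 915, 784 and 1006 CPM with idelalisib and 760, 790 and 743 CPM in control. Idelalisib replicate 2 lay within the control range and the other idelalisib cultures above it. Its log2 fold change was 0.24 (SE 0.09, 95% interval 0.04 to 0.43, edgeR adjusted p = 0.0457). This call was lost without idelalisib replicate 1 or 3 (edgeR adjusted p = 0.0925 and 0.0812) and without control replicate 1, 2 or 3 (0.139, 0.0951 and 0.156). Without idelalisib replicate 2 the log2 fold change was 0.34 (edgeR adjusted p = 0.000404). CD122 is high on CD8 T cells and natural killer (NK) cells. Of 5 tested markers of these cells 4 were higher (median log2 fold change 0.44), where 22.2% of all tested genes were. All 7 markers summed to 38.0 to 43.0 CPM in idelalisib and 23.7 to 30.6 CPM in control libraries. Most of that sum lay in markers other than Ncr1 and Cd8a. The NK receptor gene Ncr1 had no read in any library and Cd8a was at 3.40 ± 1.27 CPM with idelalisib and 1.82 ± 0.606 CPM in control (SD, n = 3 each), a call that was lost without idelalisib replicate 1 or 3 and without control replicate 1 or 3 (edgeR adjusted p = 0.0507 to 0.189). The part of such cells in the Il2rb result was not tested.

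Il2rg (ENSMUSG00000031304, mm10 chromosome X, 101264378 to 101268255, minus strand) was at 212, 248 and 247 CPM with idelalisib and 262, 252 and 262 CPM in control. Every idelalisib library was below every control library, by a margin smaller than the spread within the idelalisib group. The log2 fold change of -0.13 (SE 0.08, 95% interval -0.31 to 0.04) missed the threshold (edgeR adjusted p = 0.197), and scaled by library size alone it was 0.02. Of the 2387 exon bases of Il2rg, 728 (30.5%) are also exon bases of Gm20489, a model on the same strand that spans the locus and had 0 to 4 reads per library. No source used here says how reads on shared bases were counted, so the level of Il2rg may be understated.

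**Figure D2:**
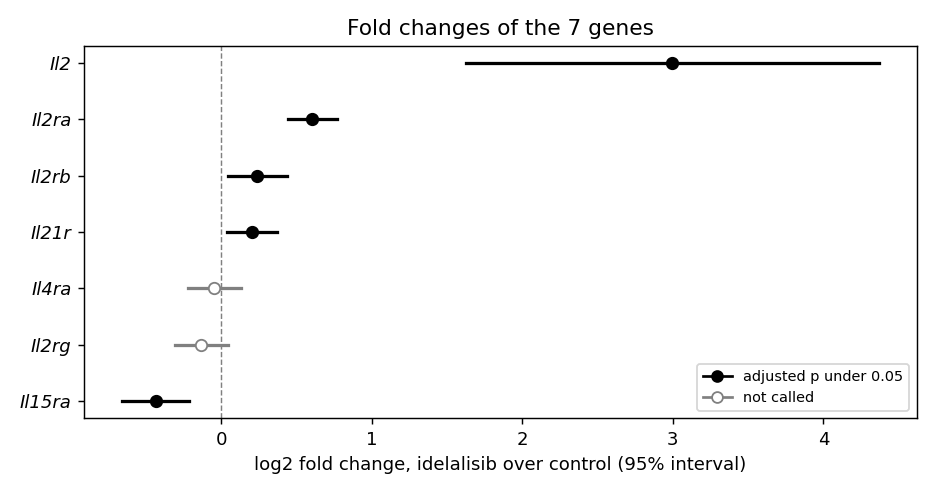
Log2 fold changes of the 7 genes, idelalisib over control, with 95% intervals. Filled points passed the test, from Il2 at 3.00 down to Il15ra at -0.44, and open points, Il4ra and Il2rg, have intervals that include 0.

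The 3 chains of the IL-2 receptor were compared per kilobase of exon, as CPM per kb. Il2ra was at 407 ± 19.1 CPM per kb with idelalisib and 268 ± 11.9 CPM per kb in control (SD, n = 3 each). Il2rb was at 210 ± 26.0 CPM per kb with idelalisib and 178 ± 5.55 CPM per kb in control, and Il2rg at 98.7 ± 8.51 CPM per kb with idelalisib and 108 ± 2.56 CPM per kb in control. Il2ra made up 56.7%, 60.0% and 54.0% of the sum of the 3 chains in the idelalisib libraries, against 48.5%, 49.0% and 47.4% in the control libraries. The groups did not overlap, and the means differed by 8.59 percentage points (exact permutation test, two-sided, p = 0.10, the smallest that 3 libraries against 3 can give). Il2rg made up 13.8 ± 0.928% of the sum with idelalisib and 19.6 ± 0.934% in control (SD, n = 3 each). The Il2rb share overlapped between groups, at 25.5 to 32.0% with idelalisib and 31.8 to 32.4% in control. Shares of a sum are tied, so a larger Il2ra share lowers the others, and Il2rg itself was not called. The level per kb of Il2ra was 3.83 to 4.46 times that of Il2rg with idelalisib and 2.32 to 2.64 times in control. With lengths limited to exon bases not shared with another gene, a setting chosen after seeing the data, Il2ra made up 50.8 to 56.4% with idelalisib and 43.5 to 45.3% in control.

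**Figure D3:**
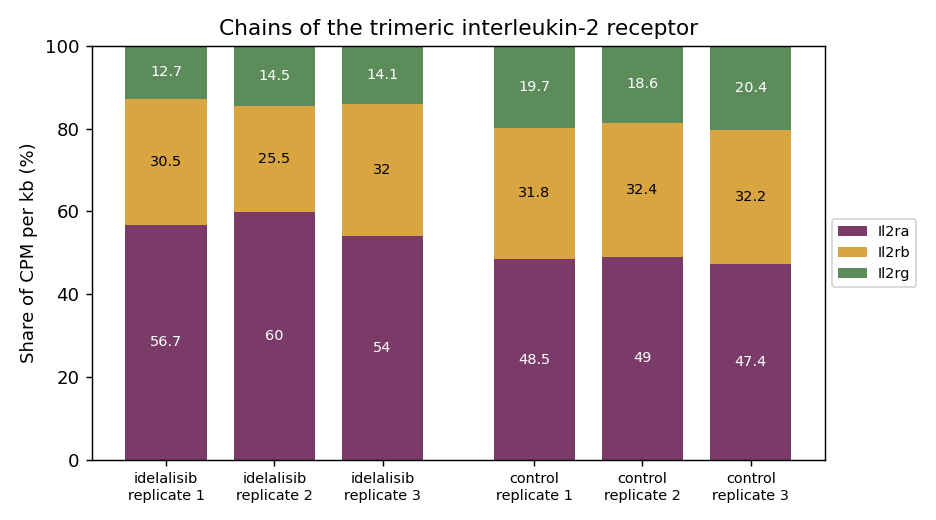
Share of each chain in the summed CPM per kb of Il2ra, Il2rb and Il2rg, 1 bar per library, idelalisib at the left and control at the right. Il2ra takes 54.0 to 60.0% of each idelalisib bar and 47.4 to 49.0% of each control bar, and Il2rg takes 12.7 to 14.5% of each idelalisib bar and 18.6 to 20.4% of each control bar.

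Il15ra (ENSMUSG00000023206, mm10 chromosome 2, 11705290 to 11734317, plus strand), the high-affinity chain that presents interleukin-15, was the receptor gene that fell. It was at 24.4, 24.7 and 25.1 CPM with idelalisib, on 349 to 420 reads, and 36.0, 30.3 and 34.2 CPM in control. The idelalisib cultures lay within 1 CPM of each other and below every control culture. The log2 fold change was -0.44 (SE 0.10, 95% interval -0.66 to -0.21, edgeR adjusted p = 0.00370), and its direction and call did not change in the 15 alternatives. Il15ra and Il2ra are neighbours in the same orientation and changed in opposite directions. The next tested protein-coding gene beyond Il15ra, Fbxo18 on the other strand, also fell, with a log2 fold change of -0.47 (edgeR adjusted p = 0.000605), and Rbm17, 38.7 kb upstream of Il2ra, had -0.26 (edgeR adjusted p = 0.0136), a call that was lost without control replicate 2 or 3 (0.0538 and 0.0589) and with library size alone (0.286). Il15ra is abundant on myeloid and dendritic cells. Only Flt3 of 10 markers of those cells passed the count filter, their summed level was 3.03 to 3.68 CPM with idelalisib and 1.57 to 2.91 CPM in control, and Siglech had no read. Their part in the Il15ra result was not tested.

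Il4ra (ENSMUSG00000030748, mm10 chromosome 7, 125552120 to 125579474, plus strand) and Il21r (ENSMUSG00000030745, mm10 chromosome 7, 125603429 to 125633570, plus strand) are also neighbours, 24.0 kb apart. Il4ra was at 505, 489 and 579 CPM with idelalisib and 549, 517 and 556 CPM in control, so the groups overlapped. Its log2 fold change of -0.05 (SE 0.08, 95% interval -0.22 to 0.13) missed the threshold (edgeR adjusted p = 0.685), and it was 0.11 scaled by library size alone and 0.01 without idelalisib replicate 2. Of its exon bases, 9.51% also belong to the antisense model Gm44876, which had 3 to 11 reads per library. Il21r was at 388, 350 and 397 CPM with idelalisib and 323, 336 and 328 CPM in control, without overlap. The log2 fold change was 0.20 (SE 0.08, 95% interval 0.04 to 0.37, edgeR adjusted p = 0.0470). Without idelalisib replicate 2, the lowest of its group, it was 0.26 (edgeR adjusted p = 0.00328). The call of Il21r was lost without idelalisib replicate 1 (edgeR adjusted p = 0.0994), without control replicate 1, 2 or 3 (0.176, 0.113 and 0.138), with RLE size factors (0.0509) and with almost no count filter (0.0684).

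Per kb of exon, the order of the levels with idelalisib was Il2ra, Il2rb, Il21r at 114 ± 7.44, Il2rg at 98.7 ± 8.51, Il4ra at 87.3 ± 7.97, Il2 at 21.3 ± 13.4 and Il15ra at 5.56 ± 0.0818 CPM per kb (SD, n = 3). In control it was Il2ra, Il2rb, Il2rg at 108 ± 2.56, Il21r at 99.0 ± 1.97, Il4ra at 90.1 ± 3.46, Il15ra at 7.53 ± 0.658 and Il2 at 2.64 ± 0.369 CPM per kb (SD, n = 3). Il2rg and Il4ra overlapped between libraries with idelalisib, and the other neighbours in either order did not. Il2 thus stood above Il15ra with idelalisib and below it in control. Per kb of unshared exon Il2rg was at 142 ± 12.2 with idelalisib and 156 ± 3.69 CPM per kb in control (SD, n = 3 each), above Il21r in both groups, so the place of Il2rg in the order depends on how shared bases were counted.

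Other ligands and receptors of the family and of close relatives were a list of 10 genes, of which 7 passed the count filter. Of these, 3 rose, 1 fell and 3 were not called, where 22.2% of all tested genes were called higher and 22.4% lower. The list's median log2 fold change was -0.05. Il13, Il13ra1 and Crlf2 in this list belong to receptors that do not use the common gamma chain. Il21, the ligand of Il21r, which lies 96.8 kb from Il2, was at 230, 242 and 204 CPM with idelalisib and 170, 150 and 194 CPM in control, a log2 fold change of 0.40 with SE 0.10 (edgeR adjusted p = 0.00523). The gene 4932438A13Rik, nearer to Il2 at 67.5 kb on its other side, was lower with idelalisib (log2 fold change -0.74, edgeR adjusted p = 0.0169). Il4, the ligand of Il4ra, was at 4.81, 3.26 and 5.32 CPM with idelalisib and 1.13, 1.72 and 1.29 CPM in control, a log2 fold change of 1.70 with SE 0.29 (edgeR adjusted p = 0.000317). Idelalisib replicate 2, highest for Il2 and Il21, was lowest of its group for Il4. Il13ra1, which pairs with Il4ra in the interleukin-13 receptor, was at 15.7 ± 1.41 CPM with idelalisib and 4.73 ± 0.459 CPM in control (SD, n = 3 each), a log2 fold change of 1.73. Il7r, the interleukin-7 receptor chain, was the 1 gene that fell, at 191, 142 and 165 CPM with idelalisib and 258, 262 and 247 CPM in control. Il7, which is made by stromal cells, had no read, and Il9 and Il15 were too low to test.

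**Figure D4:**
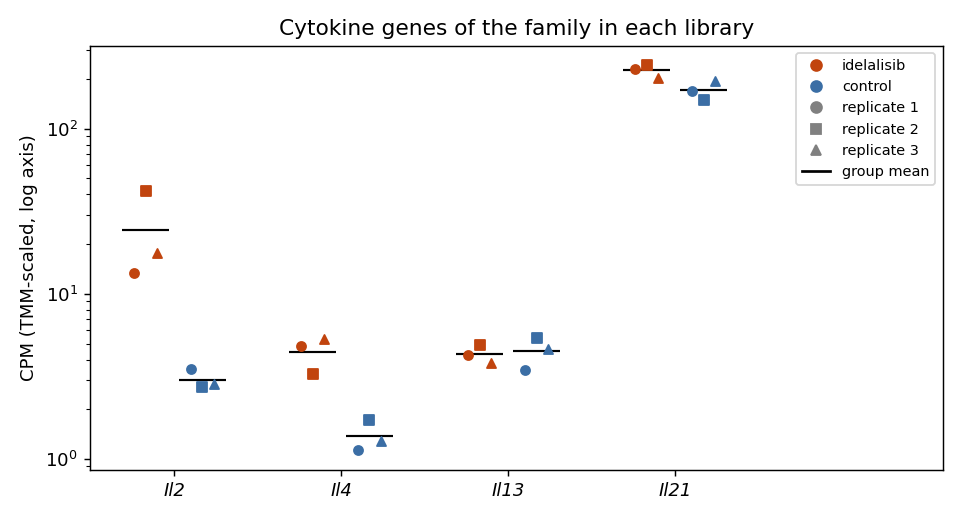
CPM of the family's cytokine genes Il2, Il4 and Il21 and of the related Il13 in each library on a log axis, idelalisib in orange left of control in blue. Il2, Il4 and Il21 lie higher in every idelalisib library than in any control library, and the Il13 points of both groups overlap between 3.44 and 5.42 CPM.

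Of 15 kinase, STAT, phosphatase and adaptor genes that carry or restrain the signal of these receptors, 6 fell and 9 were not called. Of all tested genes, 22.4% were called lower. The median log2 fold change of the 15 was -0.16, and scaling by library size alone gave 2 of them higher and 5 lower. Jak1, at 376 ± 20.7 CPM with idelalisib and 404 ± 5.07 CPM in control, and Jak3, at 707 ± 165 CPM with idelalisib and 794 ± 57.3 CPM in control, were not called (edgeR adjusted p = 0.282 and 0.403; SD, n = 3 each). Jak3 was at 517 CPM in idelalisib replicate 2, against 799 and 804 CPM in the other idelalisib cultures, and without that library its log2 fold change was 0.021 (edgeR adjusted p = 0.840). Gab2, an adaptor that links these receptors to PI3K, had the largest fall, to 13.4, 14.6 and 11.7 CPM with idelalisib, against 35.3, 40.8 and 38.3 CPM in control (log2 fold change -1.53 with SE 0.12 and edgeR adjusted p = 3.70e-07). Stat3, which interleukin-21 uses, and Ptpn2, a phosphatase that acts on JAK1 and JAK3, had log2 fold changes of -0.69 and -0.66. Of the STAT5 genes, Stat5b fell (log2 fold change -0.42, edgeR adjusted p = 0.000499), and Stat5a, named with its value known, was not called (-0.10, edgeR adjusted p = 0.30).

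Genes known to be induced through IL-2 and STAT5 moved both ways, where 22.2% of all tested genes were called higher and 22.4% lower. Of 24, 9 rose, 3 fell and 12 were not called (median log2 fold change 0.08). Scaled by library size alone, 14 were higher and 2 lower, and without idelalisib replicate 3, 9 were higher and 7 lower. The risen genes included 3 feedback inhibitors of cytokine receptors. Socs2 was at 62.7, 99.6 and 72.0 CPM with idelalisib and 30.9, 27.4 and 42.0 CPM in control (log2 fold change 1.22 with SE 0.21 and edgeR adjusted p = 0.00233). It was 1.02 without idelalisib replicate 2, its highest library (edgeR adjusted p = 0.000433). Socs3 had a log2 fold change of 0.73 and Socs1 of 0.72. Cish, another feedback inhibitor and a direct target of STAT5, was at 259, 263 and 312 CPM with idelalisib and 292, 398 and 315 CPM in control, and missed the threshold (log2 fold change -0.27, edgeR adjusted p = 0.0699), which it passed without idelalisib replicate 3 (0.0445) or control replicate 1 (0.0342), with DESeq2 (adjusted p = 0.0480) and with almost no count filter (0.0161). Nfil3, a transcription factor, fell most, to 172 ± 10.6 CPM with idelalisib, against 386 ± 2.02 CPM in control (SD, n = 3 each). Of 6 genes known to be lowered by IL-2 and STAT5, 2 fell, 1 rose and 3 were not called (median -0.24), while scaling by library size alone and the fit without idelalisib replicate 1 each gave 2 higher and 2 lower. Bcl6, the transcriptional repressor that directs follicular helper cells, fell to 8.56, 11.2 and 6.93 CPM with idelalisib, against 36.3, 21.2 and 37.7 CPM in control. Il6ra, the interleukin-6 receptor chain, rose to 64.7 ± 8.39 CPM with idelalisib, against 26.5 ± 2.44 CPM in control (SD, n = 3 each). Il7r, given above, is also in this list.

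Genes known to act on Il2 transcription were split as well, where 22.2% of all tested genes were called higher and 22.4% lower. Of 12 activators, which are 11 transcription factors and the costimulatory receptor gene Cd28, 5 rose, 2 fell and 5 were not called (median log2 fold change -0.05). Fos, an AP-1 subunit, was at 27.6, 33.5 and 26.8 CPM with idelalisib and 6.13, 5.15 and 7.22 CPM in control (log2 fold change 2.25 with SE 0.15 and edgeR adjusted p = 1.18e-07). The immediate early factor Egr1 was at 157 ± 9.53 CPM with idelalisib and 59.7 ± 3.37 CPM in control (SD, n = 3 each). Jun, the partner of Fos in AP-1, and Nfatc1 had log2 fold changes of 0.72 and 0.61. The 2 that fell, named with their values known, were the NF-kappaB genes Rel and Nfkb1, at -0.42 and -0.23 (edgeR adjusted p = 0.0128 and 0.0185). Neither was called without idelalisib replicate 1 (0.0571 and 0.0830), without control replicate 3 (0.0589 and 0.0879) or scaled by library size alone (0.0920 and 0.381). Nfkb1 was also not called without control replicate 1 or 2 (0.0558 and 0.0633). Without idelalisib replicate 2, 4 of the 12 were lower. Of 7 repressors, 2 rose, 2 fell and 3 were not called (median 0.02). Ikzf3 (Aiolos) and Prdm1 (Blimp-1) rose by 0.76 and 0.69 on the log2 scale. Crem, whose product CREM binds the Il2 promoter, and Zeb1 had log2 fold changes of -1.02 and -0.45.

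**Figure D5:**
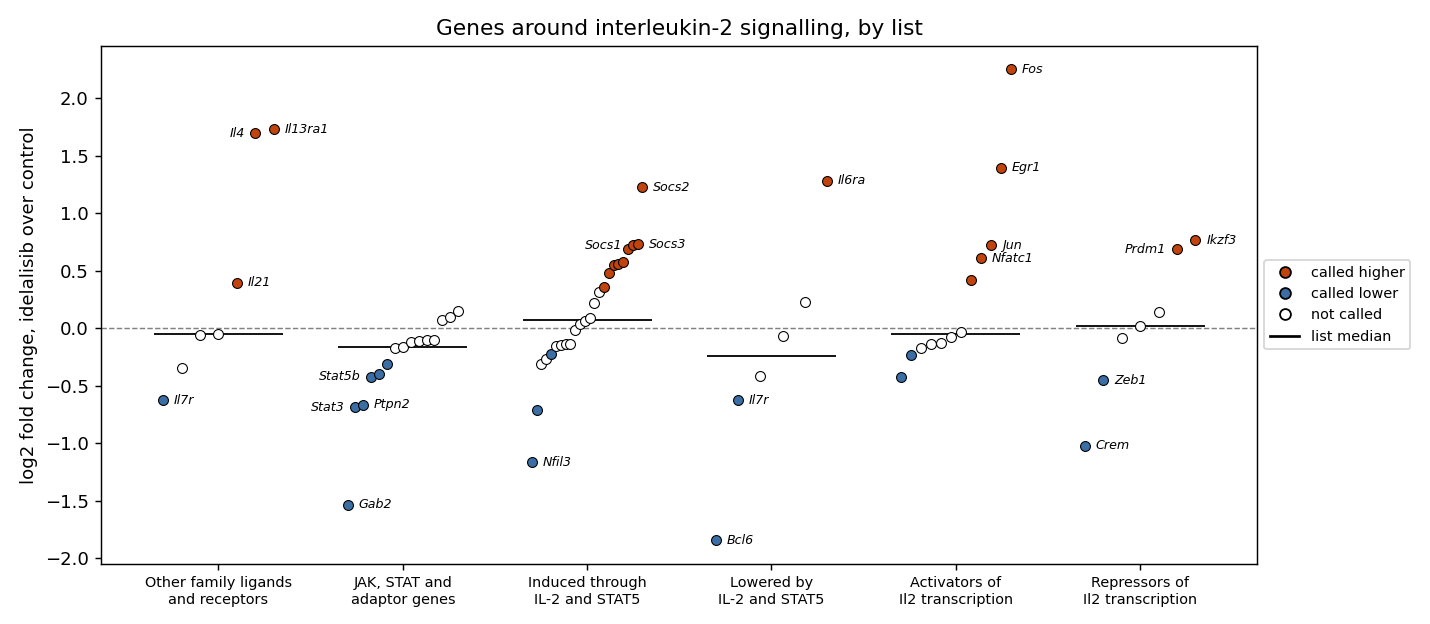
Log2 fold changes of the tested genes in 6 lists around IL-2 signalling, 1 point per gene, with a bar at each list's median and names for genes with the largest called changes. Orange points were called higher, blue points lower and white points were not called, and each list except that of JAK, STAT and adaptor genes holds points of all 3 kinds.

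The genes whose levels followed Il2 and Il2ra most closely were named by the Pearson correlation of log2 CPM over the 6 libraries, among 11388 other protein-coding genes that averaged at least 1 CPM. The 6 points form 2 groups and share their libraries, and 441 genes for Il2 and 936 for Il2ra had r above 0.95, so these are descriptions. For Il2 the closest were Prtg, Set, Slc43a3, Sf3b3 and Ercc6l, with r of 0.995 to 0.999. Each was highest in idelalisib replicate 2, as Prtg was at 7.44, 12.4 and 7.94 CPM with idelalisib and 3.75, 3.17 and 3.22 CPM in control. For Il2ra they were Faf2, Plagl2, Gvin1, Ifi44 and Sept10, with r of 0.998 to 1.000, all highest in idelalisib replicate 2 too. Faf2 was at 105, 112 and 104 CPM with idelalisib and 75.7, 77.5 and 72.3 CPM in control. These lists were not formed without that library, which would leave 5. Il2ra itself was not among the 5 genes closest to Il2.

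The labelled cell type was checked against 10 T cell markers, all of which passed the filter. Their summed level was 3557 to 3928 CPM with idelalisib and 3832 to 3951 CPM in control, and Cd4 was at 474 ± 53.1 CPM with idelalisib and 554 ± 38.1 CPM in control (SD, n = 3 each). Of 12 B cell markers 7 were tested, of which 5 were higher, where 22.2% of all tested genes were. The 12 B cell markers summed to 29.2 to 37.3 CPM with idelalisib and 24.5 to 25.1 CPM in control. Their part in the results above was not tested.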

How the data were processed

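Poly(A) RNA of 6 libraries was sequenced, 3 per group. The authors deposited raw read counts per gene, and columns were assigned to libraries through the library names in the labels. The submitters' processing notes list fastp, HISAT2 2.0.5, featureCounts 1.5.0-p3 and build mm10. Strand setting and annotation release: not given in the sources used here. The deposited gene lengths were used for levels per kb, and exon overlaps come from GENCODE M21 of the same build. Genes were filtered with filterByExpr (minimum count 10, minimum total 15), scaled with TMM and tested in R 4.3.3 with edgeR 4.0.16 (quasi-likelihood F test, robust, group alone), with Benjamini-Hochberg adjustment over all 14530 tested genes. Standard errors were computed from the F statistic. The scripts were tested on simulated data. Alternatives used limma 3.58.1 and DESeq2 1.42.0. 1 gene of the list of JAK, STAT and adaptor genes is not reported here. The members and lists were chosen with earlier results of these data known. Beside the 7 members, named genes are up to 4 called genes per list with the largest change and at least 1 CPM on average, filled up to 2 by smallest p, genes that overlap a member, the 5 most like Il2 and Il2ra, and markers. Neighbours of the members, Jak1, Jak3, Stat5a, Cish, Rel, Nfkb1 and Il13 were named after their values were seen. Replicate numbers were checked for pairing: deviations of same-numbered libraries from their group means correlated at 0.08, -0.13 and -0.10. This shows no sign of pairing, but with 3 libraries per group it cannot exclude a weak one, and the labels do not mention pairing.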

Additional observations from a re-analysis of the deposited data

How the results depend on the processing

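The direction and call of Il2, Il2ra and Il15ra did not change in any of 15 alternatives (3 other scalings, DESeq2, limma-voom, 2 other count filters, an adjusted p under 0.01, the replicate block and 6 fits without 1 library). Their log2 fold changes ranged over 2.37 to 3.30, 0.57 to 0.76 and -0.51 to -0.28. Il2rb had 0.24 and Il21r 0.20 at a threshold of 0.01, which neither passed. With the replicate number as a block, Il2rb had 0.23 (edgeR adjusted p = 0.0769) and Il21r 0.20 (0.0872), so these 2 calls were lost, and the block changed no other call of the 7 genes. Whether the numbers pair the libraries is not known. Il21r also missed with RLE size factors (0.20) and with no filter beyond a total count of 1 (0.21). Over the fits without 1 library Il2rb ranged from 0.16 to 0.34 and Il21r from 0.18 to 0.26, and each lost its call in most of them. Il2rg turned to 0.020 and Il4ra to 0.11 scaled by library size alone, and Il4ra ranged from -0.11 to 0.010 (without idelalisib replicate 2) in the fits without 1 library, none of them called. The list of genes lowered by IL-2 and STAT5 had 5 called genes with no filter beyond a total count of 1, against 3. The cause was not tested in any of these cases. The count over all genes ranged from 4441 to 7180, against 6479, and none of the 22 list genes named by the rule on largest changes changed its call or moved by over 1.5-fold. Of list genes named with their values known, Rel and Nfkb1 lost their calls in several settings and at a threshold of 0.01, and Cish gained one in others, as given with their values. The 12 activators had 2 lower, but 0 lower by library size alone, at 0.01 and without idelalisib replicate 1 or control replicate 3. The share of Il2ra differed by 7.06 to 10.1 percentage points in the fits without 1 library. The precision of Il2 is limited by its spread with idelalisib (SD 15.3 CPM, against 0.423 CPM in control). Its control counts are also low, at 40 to 56.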
